A study of Mus musculus with 18 samples.

Results

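The genes described here encode enzymes of the tricarboxylic acid (TCA) cycle: Cs, Idh2, Idh3a, Ogdh, Suclg1, Sucla2, Suclg2, Fh1 and Mdh2. They were matched by symbol to Ensembl mouse gene identifiers and are 9 of the 28030 genes in the deposited table. Of these 9 genes, 8 passed the filter on low counts and were among the 12477 genes tested. Idh3a did not pass and was not tested.

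RNA was sequenced from hepatocytes of wild-type male C57BL/6J mice, 12 weeks old and kept on normal chow. The design crossed 2 zones of the liver lobule with 3 feeding states, giving 6 groups of 3 libraries each. All mice had been trained for 3 days to a 16 h overnight fast and, on the last day, had chow with 20% sucrose in the drinking water. Fed mice were killed at clock hour 13 after 4 h of this meal. From that hour the remaining mice had neither chow nor sucrose water. They were killed after 8 h, at clock hour 21, or after 24 h, at clock hour 13. Fasting for 8 h and the later clock hour therefore cannot be told apart. The zones are labelled pericentral and periportal hepatocytes and carry the word digitonin, a detergent infused into the liver to destroy the cells of the zone it reaches first. The labels do not say whether replicates are separate mice or whether libraries of both zones came from the same animal. The p-values therefore measure only the spread between these libraries, which may be technical.

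The TCA cycle runs in the mitochondrial matrix, where acetyl-CoA joins oxaloacetate to form citrate and is oxidised to carbon dioxide while electrons pass to the respiratory chain. In the liver the cycle also gives and takes carbon: citrate leaves it for fatty acid synthesis, and malate or oxaloacetate leaves it for glucose synthesis. Periportal hepatocytes receive oxygen-rich blood and are known for oxidative metabolism and glucose synthesis, while pericentral hepatocytes are known for glutamine synthesis, lipid synthesis and drug metabolism.

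Library totals ranged from 18359911 to 26384358 estimated counts. Levels are given as CPM, a gene's count relative to the TMM-scaled size of its library, as mean ± SD of 3 libraries unless single libraries are named. The zone labels were checked with 4 pericentral markers (Glul, Cyp2e1, Cyp1a2 and Oat) and 4 periportal markers (Cyp2f2, Hal, Sds and Gls2). The pericentral markers summed to 9310 to 18300 CPM in pericentral libraries and to 420 to 2040 CPM in periportal libraries. The periportal markers summed to 278 to 1790 CPM and to 3130 to 5410 CPM in the same order. In 1 library, 24 h pericentral replicate 2, the pericentral marker Glul was at 111 CPM, against 928 and 707 CPM in its 2 replicates. All 4 pericentral markers were lowest and all 4 periportal markers highest of the group in this library. Oat was at 257 against 1050 and 1160 CPM, and Cyp2f2 at 793 against 345 and 322 CPM. Results that this library changes are given without it. Marker lists for cholangiocytes, stellate cells, endothelium and the Kupffer and white blood cells summed to at most 33.7 CPM for any of these lists in any library. In fed libraries the 5 Kupffer cell and leukocyte markers summed to 0.864 to 1.48 CPM in pericentral and 3.51 to 6.47 CPM in periportal samples, and the 5 endothelial markers to 2.63 to 4.73 and 8.11 to 9.51 CPM. Of the 4 cholangiocyte markers, Epcam was at 0 in every library and Krt19 at 0.506 CPM at most. Krt7 lay at 11.1 to 20.2 CPM and Sox9 at 2.42 to 17.4 CPM. In fed libraries these 4 markers summed to 17.0 to 20.6 CPM in pericentral and 22.3 to 33.6 CPM in periportal samples. Sox9 was called higher with edgeR in periportal samples of fed and of 8 h fasted mice. The part of these cells in the zone differences below was not tested. In bulk RNA, fewer cells of a type and less RNA per cell cannot be told apart.

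The stretches upstream of Cs, Fh1 and Ogdh are shown because these 3 genes had the largest changes over the 24 h fast among the 8 tested. Cs was the member that fell, and Fh1 and Ogdh rose. Each sequence is the 250 bases before a RefSeq transcription start, from RefSeq on build GRCm38.p6, written 5′ to 3′ on the strand of the gene. Capitals mark matches on either strand to the motifs searched. The Cs stretch is chr10:128337477-128337726 on the plus strand, the Fh1 stretch is chr1:175625636-175625885 on the minus strand, and the Ogdh stretch is chr11:6291347-6291596 on the plus strand, before the most upstream of the 6 Ogdh starts listed.
Cs: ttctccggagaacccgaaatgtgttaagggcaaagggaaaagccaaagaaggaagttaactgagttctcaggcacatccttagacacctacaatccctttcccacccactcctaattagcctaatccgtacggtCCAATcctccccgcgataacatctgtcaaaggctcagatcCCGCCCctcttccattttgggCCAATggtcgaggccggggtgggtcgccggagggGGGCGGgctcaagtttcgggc
Fh1: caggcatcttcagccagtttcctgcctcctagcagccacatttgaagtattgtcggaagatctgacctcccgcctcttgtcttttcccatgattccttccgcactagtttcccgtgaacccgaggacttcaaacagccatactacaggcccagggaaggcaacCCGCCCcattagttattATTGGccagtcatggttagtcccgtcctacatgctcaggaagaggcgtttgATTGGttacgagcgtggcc
Ogdh: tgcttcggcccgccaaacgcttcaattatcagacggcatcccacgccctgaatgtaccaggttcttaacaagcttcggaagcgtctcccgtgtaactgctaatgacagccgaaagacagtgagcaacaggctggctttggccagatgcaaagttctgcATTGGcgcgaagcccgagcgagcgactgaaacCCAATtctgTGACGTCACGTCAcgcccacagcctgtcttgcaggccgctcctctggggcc

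The Cs and Fh1 stretches both carried CCAAT boxes and GC boxes, spelled GGGCGG, close to the start. In Cs the CCAAT boxes began 116 and 55 bases before the start and the GC boxes 76 and 21 bases before it. In Fh1 the CCAAT boxes began 70 and 19 bases before the start, and a GC box 87 bases before it. The Ogdh stretch carried CCAAT boxes 92 and 60 bases before the start and no GC box. It also held the cAMP response element, TGACGTCA, 51 bases before the start. The shorter form of that element, its first 5 letters, was also searched. On either strand this form began 51, 48 and 43 bases before the start. The first 2 of these lie within the whole element and the last directly follows it. On both strands, the CCAAT box was found in 33.8% of all 32851 promoter stretches of the same length, the GC box in 32.7%, the shorter form in 17.8% and the whole element in 1.55%. The estrogen-related receptor site AAGGTCA (4.08% of stretches), the NRF1 core (0.782%) and the E-box (6.02%), which is spelled CACGTG, were searched too and lay in none of the 3 stretches shown. Outside these stretches, the whole cAMP response element also lay 127 bases before the start of Mdh2. Before Ogdh starts 4, 5 and 6, counted from upstream, the whole element was absent. An E-box lay 110, 141 and 162 bases before those starts. These matches describe the letters only, and no binding was measured.

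By zone, the cycle did not lie on 1 side of the lobule. Averaged over the 3 feeding states, Ogdh, Suclg1, Sucla2 and Fh1 were higher in periportal hepatocytes and Cs and Idh2 in pericentral hepatocytes, except that Suclg1 (0.13, edgeR adjusted p = 0.1) and Sucla2 (0.11, 0.138) did not pass with library totals in place of TMM scaling. Suclg2 and Mdh2 passed in neither direction with TMM. The differences were modest, between 1.20-fold and 1.41-fold. Of the 8 genes tested, 6 passed the test in this comparison, against 20.3% of all genes tested (edgeR quasi-likelihood test, Benjamini-Hochberg adjusted p under 0.05 over all genes tested). The median log2 difference of the 8 genes was 0.15, beside 0.00 over all genes. Within single states, 4 genes passed in fed mice (8.01% of all genes did), 2 after 8 h (7.14%) and 2 after 24 h (4.17%).

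**Figure D1:**
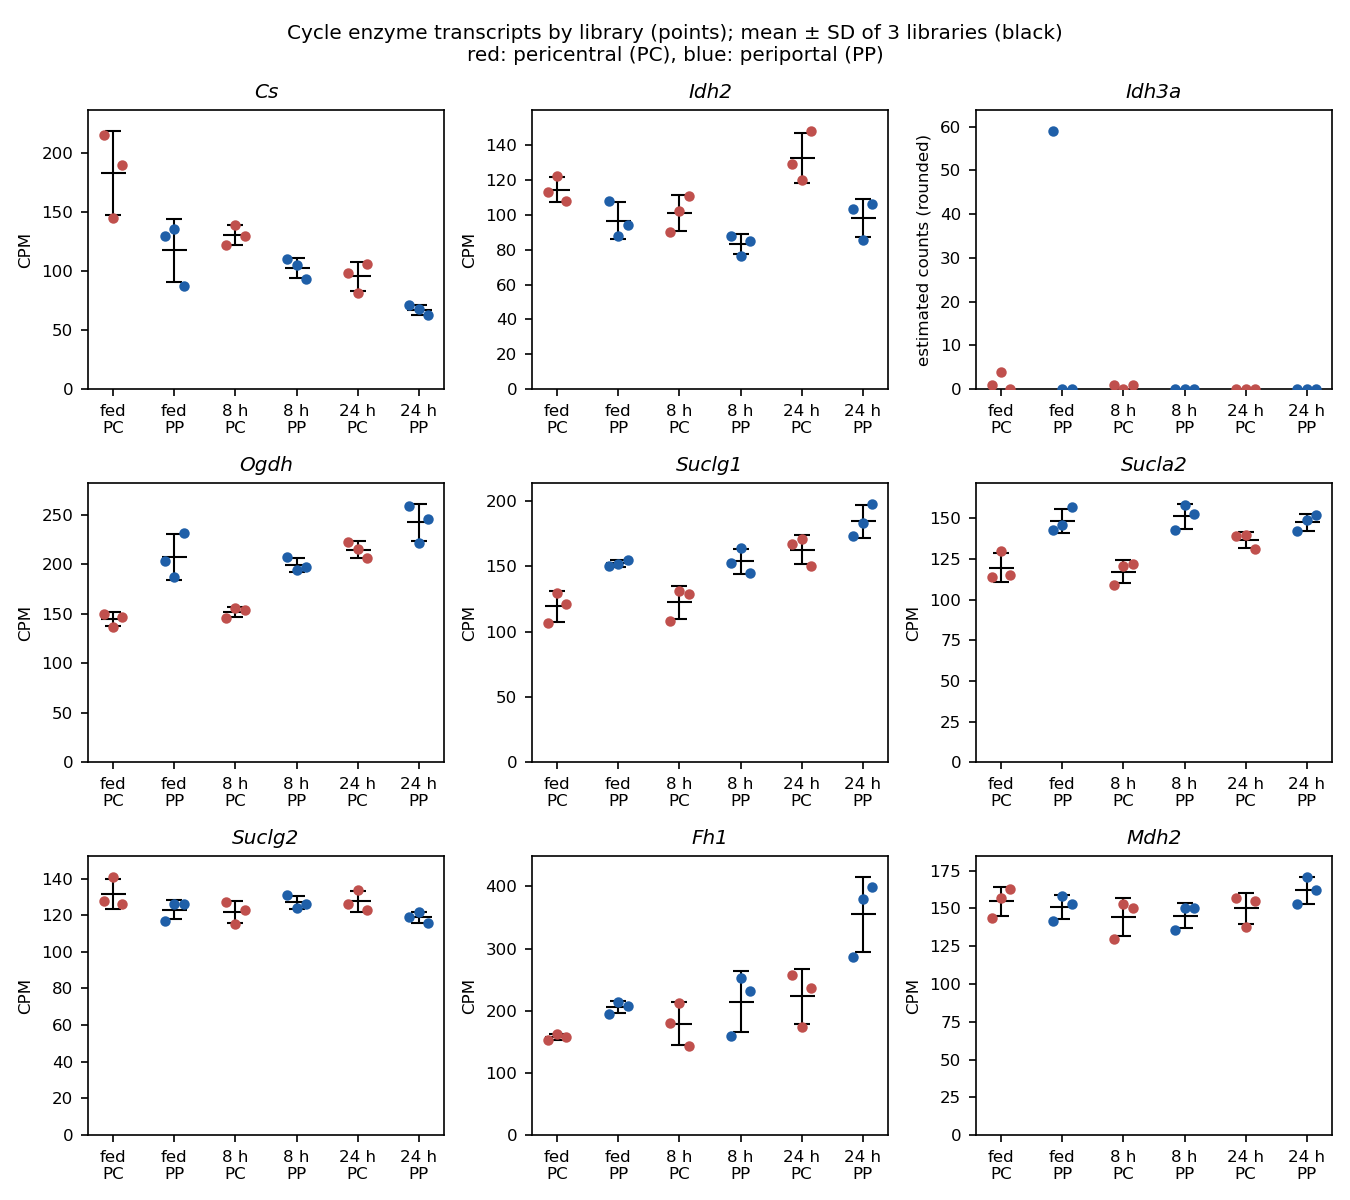
Level of each of the 9 genes in each library (points, in CPM, or in estimated counts for Idh3a), with mean and SD of 3 libraries in black (not for Idh3a), for pericentral (PC, red) and periportal (PP, blue) hepatocytes of fed, 8 h and 24 h fasted mice. Cs declined from 184 CPM in fed pericentral to 67.5 CPM in 24 h periportal samples, Fh1 ran from 158 to 355 CPM between the same groups, and Idh3a was at 0 counts in 13 of 18 libraries.

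Cs encodes citrate synthase (chr10:128337734-128362479, plus strand, GRCm38), which joins acetyl-CoA to oxaloacetate at the entry of the cycle. In fed pericentral libraries 1 to 3 it was at 215, 145 and 190 CPM, and in fed periportal libraries at 130, 136 and 87.1 CPM. The groups did not overlap, although pericentral replicate 2 lay close to the highest periportal library. Cs was lower in periportal hepatocytes of fed mice, with a log2 difference of -0.64 ± 0.16 (SE; edgeR adjusted p = 0.0177). After 8 h the libraries stood at 122, 139 and 130 CPM in pericentral and 110, 105 and 93.3 CPM in periportal hepatocytes. After 24 h they stood at 98.8, 81.9 and 106 CPM and at 71.3, 68.3 and 62.9 CPM. Every pericentral library was thus above every periportal library of its state, but within the fasted states the difference did not pass the test: it was -0.34 after 8 h (edgeR adjusted p = 0.23) and -0.50 after 24 h (edgeR adjusted p = 0.0974). Averaged over the states it was -0.49 ± 0.09 (edgeR adjusted p = 8.89e-04), and it kept its call under all 25 alternatives run for that average. The fed call was lost without fed pericentral replicate 1 (-0.52, edgeR adjusted p = 0.0873), pericentral replicate 3 (-0.62, 0.0554) or periportal replicate 3 (-0.47, 0.0783), and without this last library the 24 h difference passed (-0.50, 0.0389). It was also lost with only the groups compared (-0.64, 0.0889), and with library totals the 24 h difference passed (-0.67, 0.0328).

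Idh2 encodes the mitochondrial NADP-dependent isocitrate dehydrogenase (chr7:80094846-80115392, minus strand), which converts isocitrate to 2-oxoglutarate and supplies NADPH to the matrix. Its level was 114 ± 7.42 CPM in fed pericentral and 96.7 ± 10.5 CPM in fed periportal hepatocytes, and 101 ± 10.2 against 83.0 ± 5.75 CPM after 8 h. After 24 h the pericentral libraries were at 129, 120 and 148 CPM and the periportal libraries at 103, 85.4 and 106 CPM. The fed groups overlapped and the fasted groups did not. Idh2 was lower in periportal hepatocytes after 24 h (log2 difference -0.43 ± 0.11 SE, edgeR adjusted p = 0.043) and in the average over states (-0.32 ± 0.07, edgeR adjusted p = 0.00216). The fed and 8 h differences, -0.24 and -0.28, did not pass (edgeR adjusted p = 0.234 and 0.159). The 24 h call was lost in 8 of 18 runs that left out 1 library: fed pericentral replicate 1, 8 h pericentral replicate 2, 8 h periportal replicate 3, 24 h pericentral replicates 1 and 3, and each 24 h periportal replicate (from -0.34 to -0.49, edgeR adjusted p up to 0.197). It was also lost with no filter beyond 1 count (-0.43, edgeR adjusted p = 0.0523) and with only the groups compared (-0.42, 0.107). With library totals the 8 h difference passed (-0.49, edgeR adjusted p = 0.0223). The 24 h call was kept without 24 h pericentral replicate 2 (-0.50, edgeR adjusted p = 0.0352), and the average over states kept its call under all 25 alternatives.

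Idh3a encodes the catalytic alpha subunit of the NAD-dependent isocitrate dehydrogenase (chr9:54586334-54604661, plus strand). It was listed at 0 estimated counts in 13 of 18 libraries, which at these depths allows up to 0.114 to 0.163 CPM by library total (3 counts, counting error only). The highest library, fed periportal replicate 1, held 59 counts (2.43 CPM), and the next held 4. Its partner subunits were well measured in the same libraries: Idh3b lay between 134 and 184 CPM and Idh3g between 41.2 and 65.9 CPM. The values of Idh3a therefore describe how this gene is listed in the table, no fold is given for it, and the cause of its low counts was not tested.

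Ogdh encodes the E1 subunit of the 2-oxoglutarate dehydrogenase complex (chr11:6291633-6356642, plus strand), which forms succinyl-CoA. In fed mice it was at 150, 137 and 147 CPM in the pericentral libraries and at 203, 187 and 232 CPM in the periportal libraries. After 8 h the corresponding libraries were at 146, 156 and 154 CPM and at 207, 194 and 197 CPM. In both states every periportal library lay above every pericentral one. Ogdh was higher in periportal hepatocytes of fed mice by 0.52 ± 0.09 on the log2 scale (SE, edgeR adjusted p = 0.00162) and after 8 h by 0.39 ± 0.09 (edgeR adjusted p = 0.0138). After 24 h the libraries, at 223, 215 and 206 CPM and at 259, 222 and 246 CPM, overlapped, and the difference of 0.17 did not pass the test (edgeR adjusted p = 0.354). The fed call was kept under all 26 alternatives, and the 8 h call was lost without 8 h pericentral replicate 1 (0.36, edgeR adjusted p = 0.0588), with library totals (0.18, 0.325) and with only the groups compared (0.39, 0.0667). Library totals moved the median of all genes by -0.21 in the 8 h zone comparison.

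Succinyl-CoA ligase couples the cleavage of succinyl-CoA to the formation of ATP or GTP. Its alpha subunit, encoded by Suclg1 (chr6:73248382-73276911, plus strand), pairs either with the ATP-forming beta subunit of Sucla2 (chr14:73525319-73596142, plus strand) or with the GTP-forming beta subunit of Suclg2 (chr6:95473009-95718800, minus strand). The subunit shared by both forms and the ATP-forming subunit were higher on the periportal side, while the GTP-forming subunit showed no difference that passed the test.

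Suclg1 stood at 107, 130 and 121 CPM in fed pericentral libraries and at 150, 152 and 155 CPM in fed periportal libraries, with no overlap. In fed mice the log2 difference was 0.35 ± 0.10 (SE, edgeR adjusted p = 0.0361), against 0.33 ± 0.10 after 8 h (edgeR adjusted p = 0.0556) and 0.29 ± 0.06 in the average over states (edgeR adjusted p = 0.00154). The 8 h difference passed with DESeq2 (0.33, DESeq2 adjusted p = 0.0126) and with DESeq2 size factors (0.33, edgeR adjusted p = 0.0491). With library totals it was 0.11 (edgeR adjusted p = 0.503). Sucla2 stood at 114, 130 and 115 CPM against 143, 146 and 157 CPM in fed mice, and at 109, 121 and 122 CPM against 143, 158 and 153 CPM after 8 h. The zones did not overlap in either state. Its log2 difference was 0.31 ± 0.08 in fed mice (edgeR adjusted p = 0.0257), 0.37 ± 0.08 after 8 h (edgeR adjusted p = 0.00958) and 0.26 ± 0.05 in the average (edgeR adjusted p = 6.31e-04). After 24 h the differences of both genes were smaller, 0.18 for Suclg1 and 0.11 for Sucla2, and neither passed (edgeR adjusted p = 0.37 and 0.537). The zones did not overlap at 24 h for either gene. For Sucla2 every periportal library, at 142 CPM or above, exceeded every pericentral library, at 140 CPM or below. Suclg2 was between 119 ± 3.06 and 132 ± 8.14 CPM in all 6 groups, and its average zone difference was -0.04 (95% interval -0.14 to 0.05, edgeR adjusted p = 0.54). The fed call of Suclg1 was lost without fed pericentral replicate 1 or 3 or any fed periportal replicate (0.27 to 0.36, edgeR adjusted p = 0.0795 to 0.167), that of Sucla2 without fed pericentral replicate 1 or 3 or periportal replicate 2 or 3 (0.26 to 0.32, edgeR adjusted p = 0.0604 to 0.12). With library totals neither fed call was kept (0.29, edgeR adjusted p = 0.115, for Suclg1 and 0.25, 0.151, for Sucla2), nor with no filter beyond 1 count or only the groups compared. The 8 h call of Sucla2 was lost without 8 h pericentral replicate 1 (0.31, edgeR adjusted p = 0.0615), with library totals (0.15, 0.314) and with only the groups compared (0.37, 0.0974).

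Fh1 encodes fumarate hydratase (chr1:175600374-175625635, minus strand), which adds water to fumarate to give malate. In fed mice it was at 153, 163 and 158 CPM in pericentral and 195, 214 and 208 CPM in periportal libraries. These groups did not overlap, but the log2 difference of 0.38 ± 0.18 (SE) did not pass the test (edgeR adjusted p = 0.247). After 8 h the libraries spread widely and overlapped, with 181, 213 and 144 CPM against 160, 253 and 231 CPM. After 24 h they were at 258, 174 and 237 CPM against 286, 380 and 399 CPM, without overlap, and Fh1 was higher in periportal hepatocytes by 0.67 ± 0.18 (edgeR adjusted p = 0.0459). Averaged over states the difference was 0.44 ± 0.10 (edgeR adjusted p = 0.00654), and this average kept its call under all 25 alternatives. The 24 h call was lost with library totals (0.49, edgeR adjusted p = 0.0759), limma-voom (0.67, 0.055) and only the groups compared (0.68, 0.0833). It was also lost without 24 h pericentral replicate 2 (0.52, edgeR adjusted p = 0.177), the library with low Glul and the lowest Fh1 of its group. Leaving out any 1 of the 6 fed libraries, 8 h pericentral replicate 1, 8 h periportal replicate 3, 24 h pericentral replicates 1 and 3, or 24 h periportal replicates 2 and 3 also ended it (0.58 to 0.79, edgeR adjusted p up to 0.193).

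Mdh2 encodes the mitochondrial malate dehydrogenase (chr5:135778480-135790398, plus strand), which returns malate to oxaloacetate. It showed no zone difference that passed the test. Its group means lay between 144 ± 12.4 and 162 ± 9.26 CPM, and the average zone difference was 0.03 (95% interval -0.08 to 0.14, edgeR adjusted p = 0.774).

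**Figure D2:**
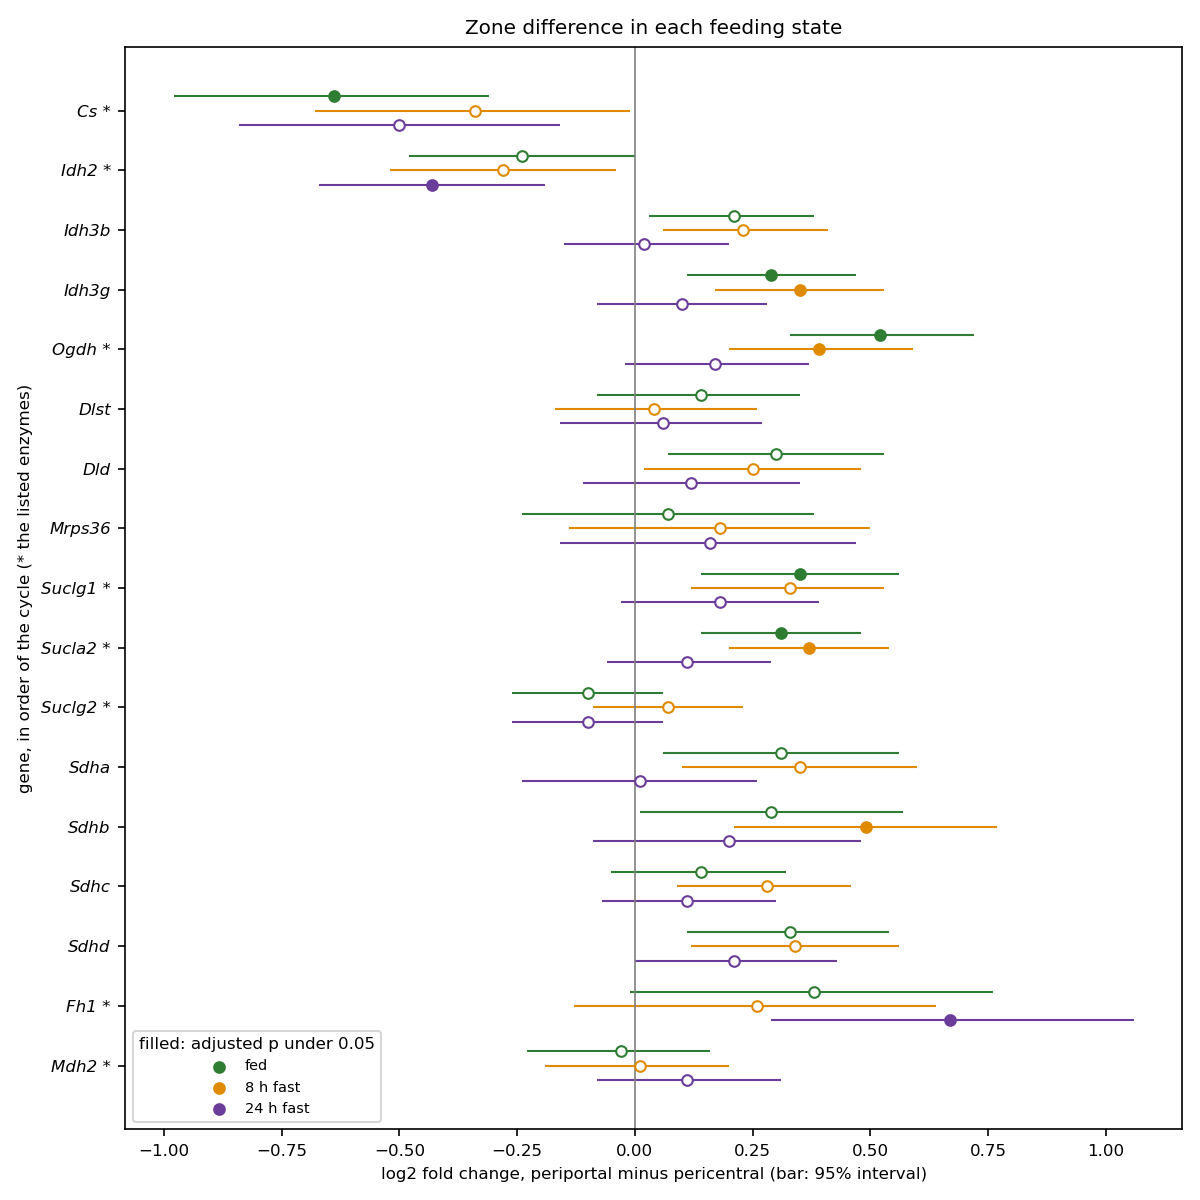
Log2 fold change of periportal over pericentral hepatocytes with its 95% interval in fed, 8 h and 24 h fasted mice, for the genes of the cycle in the order of its steps (asterisks mark the 8 tested genes described in detail); filled points passed an adjusted p of 0.05. Cs and Idh2 lie left of zero in all 3 states and Ogdh, Suclg1, Sucla2 and Fh1 lie right of it.

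Further subunits of the cycle were read from a list of 10 genes, of which 9 were tested; Ogdhl, a relative of Ogdh, was at 0.195 CPM at most and was not tested. All 9 had an average zone difference above 0, and 7 were higher in periportal hepatocytes, as were 10.3% of all genes. The 7 were the isocitrate dehydrogenase subunits Idh3b and Idh3g, Dld, the E3 subunit that several dehydrogenase complexes share, and the 4 subunits of succinate dehydrogenase, Sdha, Sdhb, Sdhc and Sdhd. The average differences of these 7 ran from 0.16 for Idh3b (edgeR adjusted p = 0.0272) to 0.33 for Sdhb (edgeR adjusted p = 0.00576). Dlst, the E2 subunit of the 2-oxoglutarate dehydrogenase complex, had 0.08 (edgeR adjusted p = 0.408) and Mrps36, a small component of that complex, 0.14 (edgeR adjusted p = 0.304). The median over the 9 genes was 0.29 in fed mice, 0.28 after 8 h and 0.11 after 24 h, beside medians over all genes of 0.00, 0.01 and 0.00. With library totals 0 of the 7 calls were kept, and with no filter beyond 1 count 5 were. Leaving out 1 library left 5 to 7 of the 7 calls. Idh3b lost its call without fed pericentral replicate 1, fed periportal replicate 2 or 3, 8 h pericentral replicate 1, 8 h periportal replicate 2, 24 h pericentral replicate 1 or 24 h periportal replicate 3 (edgeR adjusted p up to 0.063). Sdha lost it without fed pericentral replicate 3, fed periportal replicate 1 or 2, 8 h periportal replicate 2 or 24 h periportal replicate 3 (up to 0.057).

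With the 8 tested enzymes and these subunits, 11 of 17 cycle genes were higher and 2 lower in periportal hepatocytes in the average over states, against 10.3% and 9.96% of all genes. This split depended on the scaling. With library totals in place of TMM, the median of all genes moved by -0.15 in this comparison, and 2 cycle genes (Ogdh and Fh1) were called higher and 3 (Cs, Idh2 and Suclg2) lower. Relative to that moved median, the differences were -0.50 for Cs, -0.32 for Idh2, 0.36 for Ogdh, 0.26 for Sucla2, 0.28 for Suclg1 and 0.42 for Fh1. Relative to the median of all genes, these differences were nearly the same under both scalings. A change of scaling moves all genes by about the same amount, so this likeness was fixed in advance. It does not bear on which scaling is right. A list of 14 genes of mitochondrial pores, import and inner membrane proteins had a median average difference of 0.04. In it the pore gene Vdac2 was higher in periportal hepatocytes (0.36, edgeR adjusted p = 1.10e-04) and the import receptor gene Tomm70a, named here after its values were seen, was lower (-0.15, edgeR adjusted p = 0.0332, lost in 6 of 18 runs that left out 1 library). With library totals the list had 1 gene called higher and 3 lower, among them Hspd1 (-0.23, edgeR adjusted p = 0.00827) and Phb2 (-0.25, 0.0154), both named after their values were seen.

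Over the 24 h fast, the first enzyme of the cycle fell while 3 later ones rose. With edgeR, Cs fell in both zones, Ogdh and Suclg1 rose in pericentral hepatocytes, and Fh1 rose in periportal hepatocytes. With DESeq2 these 4 genes passed in both zones. Idh2, Sucla2, Suclg2 and Mdh2 did not pass the test in either zone. Between fed and 24 h, 3 of the 8 genes passed in pericentral hepatocytes (21.8% of all genes did) and 2 in periportal hepatocytes (19.6%). Averaged over the zones 4 passed (34.5%), of which 3 rose (17.0% of all genes did) and 1 fell (17.5%), with a median log2 change of 0.10 beside 0.01 over all genes. All comparisons with the fed state share the fed libraries.

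Cs fell from 184 ± 35.7 to 95.5 ± 12.3 CPM in pericentral hepatocytes, a log2 change of -0.94 ± 0.16 (SE, edgeR adjusted p = 5.54e-04). In periportal hepatocytes it fell from 118 ± 26.6 to 67.5 ± 4.24 CPM, a change of -0.80 ± 0.16 (edgeR adjusted p = 0.00224). In each zone all 24 h libraries lay below all fed libraries, and both calls were kept under all 26 alternatives. Averaged over zones the change was -0.87 ± 0.11 (edgeR adjusted p = 1.94e-05), a 1.83-fold decrease.

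Fh1 rose in periportal hepatocytes from 205 ± 9.57 to 355 ± 60.5 CPM, by 0.79 ± 0.18 on the log2 scale (edgeR adjusted p = 0.00588), and kept this call under all 26 alternatives. All 3 libraries of the 24 h group lay above the fed ones. In pericentral hepatocytes it stood at 158 ± 4.90 CPM in fed and 223 ± 43.7 CPM in 24 h fasted mice, again without overlap, and the change of 0.50 ± 0.18 did not pass (edgeR adjusted p = 0.0612). It passed without 24 h pericentral replicate 2 (0.65, edgeR adjusted p = 0.0255) and without 8 h periportal replicate 1 (0.49, 0.0367). The pericentral change also passed with only the groups compared (0.49, edgeR adjusted p = 0.0396) and with DESeq2 (0.49, DESeq2 adjusted p = 0.0415).

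Ogdh rose in pericentral hepatocytes from 145 ± 7.11 to 215 ± 8.86 CPM, by 0.57 ± 0.09 (edgeR adjusted p = 3.81e-04), with no overlap. In periportal hepatocytes it stood at 207 ± 22.7 and 242 ± 18.9 CPM, and the change of 0.22 ± 0.09 did not pass (edgeR adjusted p = 0.101). Without fed periportal replicate 3, the highest fed library, that change was 0.31 (edgeR adjusted p = 0.0391). With DESeq2 it also passed (0.23, DESeq2 adjusted p = 0.0425). Suclg1 rose in pericentral hepatocytes from 120 ± 11.3 to 163 ± 11.2 CPM, by 0.44 ± 0.10 (edgeR adjusted p = 0.00396). In periportal hepatocytes it stood at 152 ± 2.07 and 184 ± 12.6 CPM, and the change of 0.28 ± 0.10 did not pass (edgeR adjusted p = 0.0587), although it did without 8 h pericentral replicate 1 (0.27, 0.0498). This periportal change of Suclg1 also passed with DESeq2 (0.28, DESeq2 adjusted p = 0.0238). The pericentral calls of both genes were kept under all 26 alternatives. Over the same 24 h the periportal markers rose in pericentral libraries, from a sum of 278 to 456 CPM in fed to 806 to 1790 CPM in 24 h fasted mice. The highest of these sums was that of 24 h pericentral replicate 2. All 4 of these markers passed, with a median log2 change of 1.92 (edgeR adjusted p under 0.05), and none of them was at 0. Fed periportal libraries held more Ogdh and Suclg1 than fed pericentral ones, and the part of the marker shift in these 2 pericentral changes was not tested. Without 24 h pericentral replicate 2, the library with low Glul, Ogdh changed by 0.57 (edgeR adjusted p = 0.00177) and Suclg1 by 0.40 (edgeR adjusted p = 0.0200).

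The other beta subunits and dehydrogenases moved little. The 24 h change of Sucla2 was 0.19 (95% interval 0.02 to 0.36, edgeR adjusted p = 0.113) in pericentral and -0.01 (-0.18 to 0.16, 0.96) in periportal hepatocytes. For Suclg2 it was -0.05 in both zones (95% interval -0.21 to 0.11). For Mdh2 it was -0.04 (95% interval -0.24 to 0.15) and 0.10 (-0.09 to 0.30), and for Idh2 0.21 (-0.03 to 0.45) and 0.02 (-0.22 to 0.26), pericentral first.

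**Figure D3:**
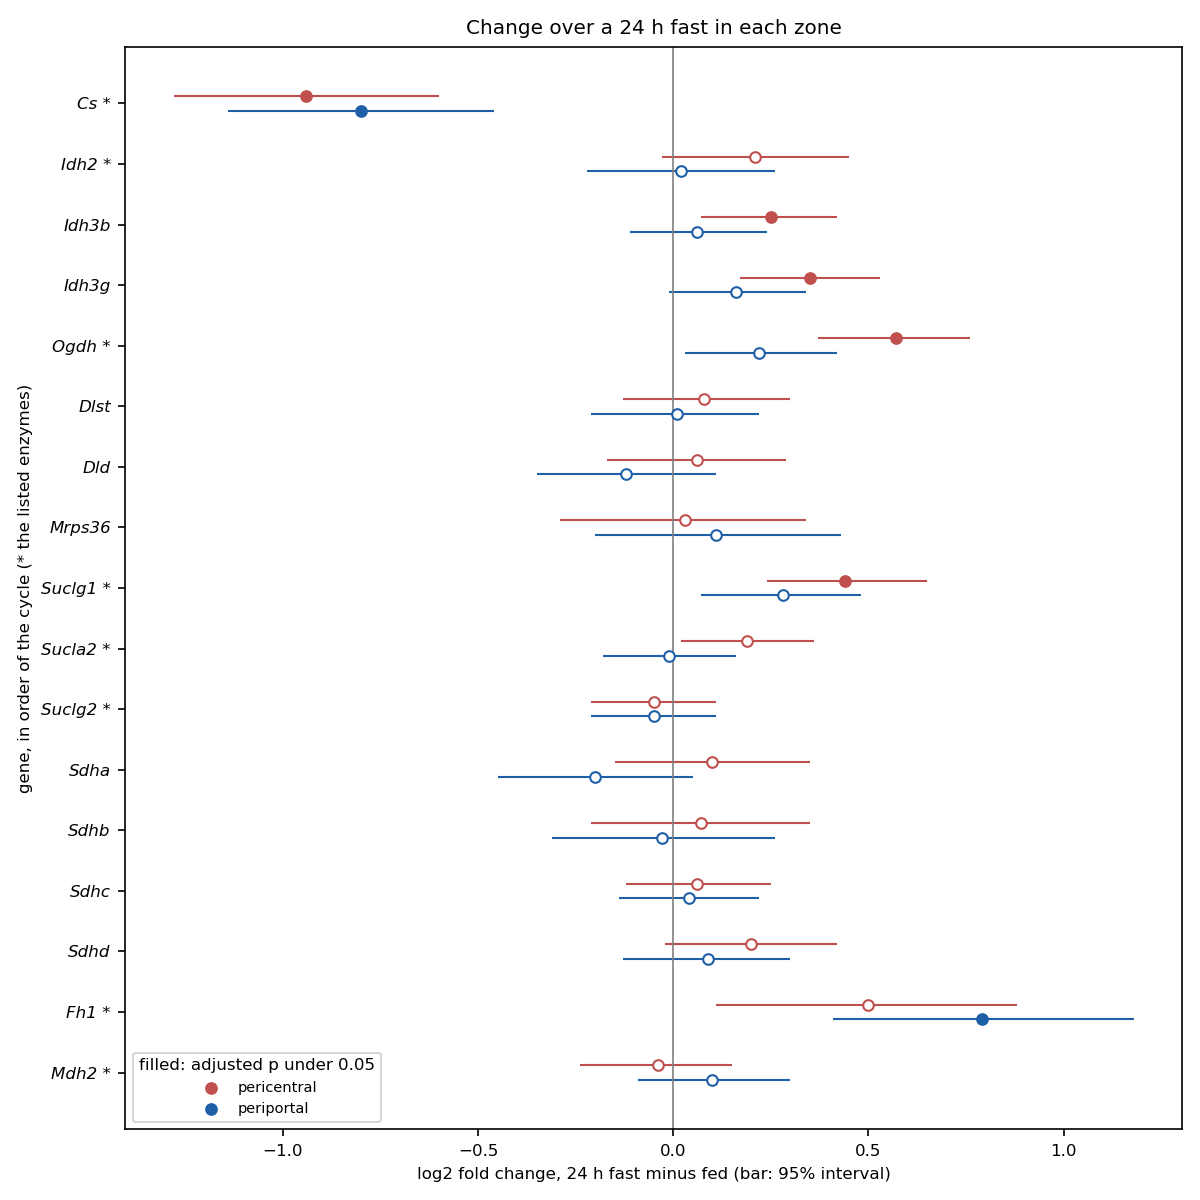
Log2 fold change of 24 h fasted over fed mice with its 95% interval in pericentral (red) and periportal (blue) hepatocytes, for the genes of the cycle in the order of its steps (asterisks mark the 8 tested genes described in detail); filled points passed an adjusted p of 0.05. Cs alone lies left of zero with filled points, at -0.94 and -0.80, and Fh1 lies furthest right, at 0.79 in periportal hepatocytes.

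Changes over each part of the fast follow, and no test compared timing between genes. Each part also spans a change of clock hour, from 13 to 21 or from 21 to 13. Between fed and 8 h only Cs passed, in pericentral hepatocytes (-0.49 ± 0.16 SE, edgeR adjusted p = 0.0486), which makes 1 of 8 genes against 13.8% of all genes. In periportal hepatocytes 0 of 8 passed (14.4% of all genes did), none had an unadjusted p under 0.05 with edgeR, and DESeq2 and limma-voom also called 0. Averaged over zones 1 of 8 passed, against 26.4% of all genes: Cs, with -0.34 ± 0.11 (edgeR adjusted p = 0.032). The pericentral 8 h call of Cs was lost in 14 of 18 runs that left out 1 library, all but fed pericentral replicate 2, fed periportal replicates 2 and 3, and 24 h pericentral replicate 2 (over all 18 runs -0.63 to -0.35, edgeR adjusted p = 0.0184 to 0.214). The averaged call was lost without fed pericentral replicate 1 or 3, fed periportal replicate 1 or 2, 8 h pericentral replicate 1 or 3, or 8 h periportal replicate 2 or 3 (-0.27 to -0.35, edgeR adjusted p = 0.0514 to 0.0958).

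Between 8 h and 24 h, 3 of 8 genes passed in pericentral hepatocytes (9.71% of all genes did) and 2 in periportal hepatocytes (7.46%). In pericentral hepatocytes Ogdh rose by 0.50 ± 0.09 (SE, edgeR adjusted p = 0.00326), Suclg1 by 0.40 ± 0.10 (edgeR adjusted p = 0.0165) and Idh2 by 0.39 ± 0.11 (edgeR adjusted p = 0.0413). In periportal hepatocytes Fh1 rose by 0.73 ± 0.18 (edgeR adjusted p = 0.0236) and Cs fell, with a change of -0.61 ± 0.16 (edgeR adjusted p = 0.0304). The periportal change of Ogdh, 0.28 without overlap, did not pass (edgeR adjusted p = 0.0732) but did with DESeq2 (0.29, DESeq2 adjusted p = 0.0136). With DESeq2 Sucla2 also passed in pericentral hepatocytes (0.23, DESeq2 adjusted p = 0.0394). With library totals Suclg1 (0.35, edgeR adjusted p = 0.0546), Idh2 (0.33, 0.143) and Cs (-0.62, 0.0565) did not pass. The periportal markers moved here too: 3 of 4 rose in pericentral hepatocytes between 8 h and 24 h, and their part was not tested. The pericentral Ogdh call was kept under all 26 alternatives. That of Suclg1 was lost without 8 h pericentral replicate 1 (0.31, edgeR adjusted p = 0.102) or 24 h pericentral replicate 1 (0.37, 0.0544) or 2 (0.37, 0.0651). That of Idh2 was lost without fed pericentral replicate 1 or 2, fed periportal replicate 3, 8 h pericentral replicate 1 or 2, or 24 h pericentral replicate 1 or 3 (0.30 to 0.39, edgeR adjusted p = 0.0529 to 0.191). That of Fh1 was lost without 8 h periportal replicate 1 (0.55, edgeR adjusted p = 0.0856) or 24 h periportal replicate 2 (0.68, 0.0934) or 3 (0.64, 0.0886). That of Cs was lost without 8 h periportal replicate 1 or 2 or any 24 h periportal replicate (-0.56 to -0.65, edgeR adjusted p = 0.0545 to 0.104), and the pericentral change of Cs, -0.45 (edgeR adjusted p = 0.0878), passed without fed periportal replicate 3 (-0.46, 0.0357).

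Whether the 24 h change itself differed between zones was tested as the periportal change minus the pericentral change. None of the 8 genes passed this test (0.0160% of all genes did), and DESeq2 and limma-voom also called 0 of the 8. The only member with an unadjusted p under 0.05 was Ogdh, with a difference of -0.35 ± 0.13 (SE, edgeR adjusted p = 0.522). The difference was 0.30 (95% interval -0.25 to 0.84) for Fh1, 0.14 (-0.33 to 0.62) for Cs and -0.17 (-0.46 to 0.13) for Suclg1. For the 8 h change, 0 of 8 genes passed (0% of all genes did), 0 had an unadjusted p under 0.05, and DESeq2 and limma-voom called 0. That a change passed in 1 zone and not in the other was therefore not shown to be a difference between zones.

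Per kilobase of the principal GENCODE transcript, the order of the enzymes differed between the ends of the design. In fed pericentral hepatocytes Mdh2 was the most abundant, at 106 ± 6.77 CPM per kilobase, followed by Suclg1 at 79.0 ± 7.44. Idh2 (65.3 ± 4.25), Cs (62.9 ± 12.2) and Fh1 (59.9 ± 1.86) came next, with ranges of mean ± SD that overlapped. Sucla2 (53.8 ± 4.05) followed, its range below that of Fh1 but overlapping that of Cs, and Suclg2 (39.2 ± 2.42) and Ogdh (35.1 ± 1.72) were lowest. In 24 h fasted periportal hepatocytes Fh1 was at 135 ± 23.0 CPM per kilobase, Suclg1 at 121 ± 8.29 and Mdh2 at 111 ± 6.36, with ranges of mean ± SD that overlapped. Sucla2 (66.4 ± 2.13), Ogdh (58.6 ± 4.58) and Idh2 (56.3 ± 6.42) were in the middle, Suclg2 was at 35.3 ± 0.909, and Cs was last, at 23.1 ± 1.45.

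The pairs that diverged can be read within each library as ratios of CPM, which compare groups but, without correction for length, not the genes themselves. The ratio of Fh1 to Cs averaged 0.888 ± 0.213 in fed pericentral, 1.82 ± 0.491 in fed periportal, 2.32 ± 0.255 in 24 h pericentral and 5.31 ± 1.19 in 24 h periportal libraries. Every 24 h periportal library, at 4.02 or above, exceeded every other library of the study. The ratio of Suclg2 to Sucla2, the GTP-forming over the ATP-forming beta subunit, averaged 1.10 ± 0.0243 in fed pericentral and 0.829 ± 0.0301 in fed periportal libraries. After 24 h the same ratio averaged 0.933 ± 0.0287 and 0.804 ± 0.0368. The zones did not overlap in this ratio in any state. Both ratios were formed after the values of their genes were seen and are given without a test.

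**Figure D4:**
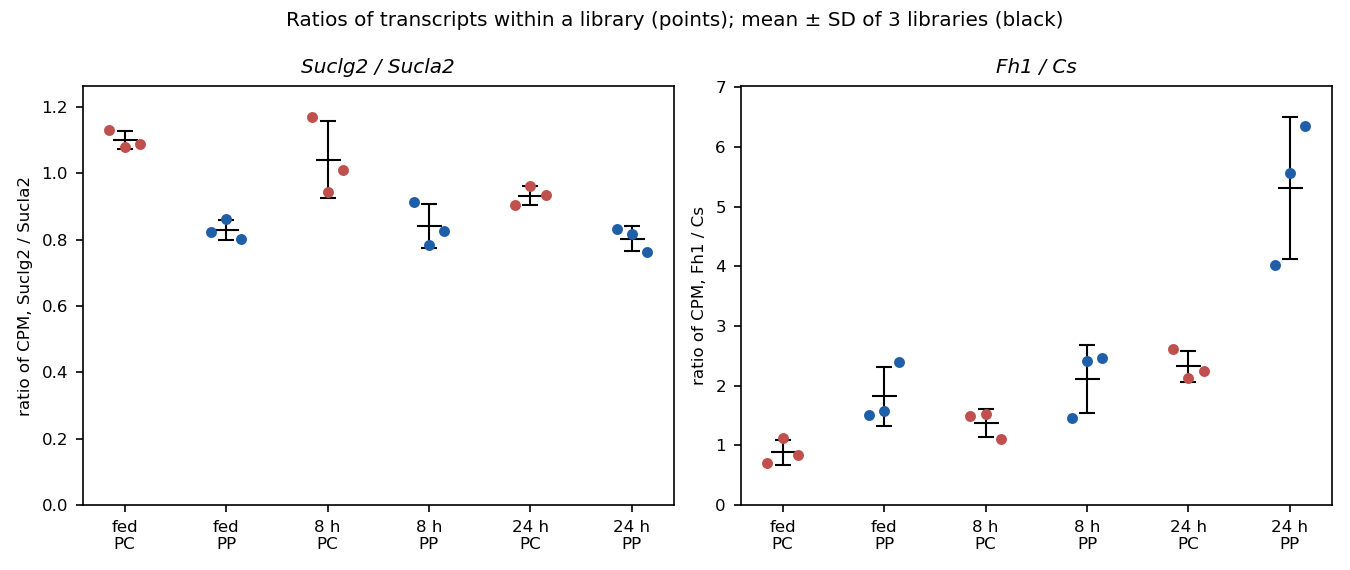
Ratio of Suclg2 to Sucla2 (left) and of Fh1 to Cs (right) in each library (points), with mean and SD of 3 libraries in black, for pericentral (PC, red) and periportal (PP, blue) hepatocytes in each feeding state. The left ratio is higher in pericentral than in periportal libraries of every state, and the right ratio reaches 4.02 to 6.35 in 24 h fasted periportal libraries.

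Among the other subunits of the cycle, 2 of 9 rose in pericentral hepatocytes over 24 h (10.8% of all genes did), Idh3g by 0.35 ± 0.08 (SE, edgeR adjusted p = 0.00677) and Idh3b by 0.25 ± 0.08 (edgeR adjusted p = 0.0393). With library totals neither passed (0.32, edgeR adjusted p = 0.0672, and 0.22, 0.181). The Idh3b call was also lost without any fed or 24 h pericentral library, fed periportal replicate 2 or 3, 8 h pericentral replicate 3 or 8 h periportal replicate 2 (edgeR adjusted p up to 0.107). The median 24 h change of the 9 genes was 0.08 in pericentral and 0.04 in periportal hepatocytes, beside 0.01 and 0.00 over all genes. In the list of mitochondrial structure genes, 4 of 14 passed with TMM in the average over zones, all higher after 24 h (17.0% of all genes were), with a list median of 0.09 beside 0.01 over all genes. With library totals none of these 4 passed, and Vdac3, a pore gene named here after its values were seen, was called lower (-0.21, edgeR adjusted p = 0.0338). Timm44, part of the import motor, had a change of 0.28 with TMM (edgeR adjusted p = 0.00126) and of 0.20 with library totals (edgeR adjusted p = 0.0689). Of 4 assembly factors of succinate dehydrogenase, 1 passed between fed and 8 h in the average over zones, a share near the 26.4% of all genes. This was Sdhaf1, which fell, with a change of -0.48 (edgeR adjusted p = 0.00132), kept under all 26 alternatives. The 8 h libraries also differ in clock hour. Sdhaf1 rose between 8 h and 24 h in periportal hepatocytes (0.53, edgeR adjusted p = 0.0291), a call lost with library totals (0.52, 0.0941). Between fed and 24 h it did not pass in the average over zones.

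Among enzymes that share substrates with the cycle in the cytosol, Acly and Me1 fell further than any cycle gene described here. Of 5 such genes, 3 passed in each zone over 24 h (21.8% of all genes did in pericentral and 19.6% in periportal hepatocytes), and all 3 fell. Acly, whose product splits exported citrate into acetyl-CoA for lipid synthesis, went from 2000 to 119 CPM in pericentral hepatocytes (log2 change -4.08 ± 0.59 SE, edgeR adjusted p = 2.97e-04) and from 2510 to 245 CPM in periportal hepatocytes (-3.36 ± 0.57, edgeR adjusted p = 0.0011). Me1, the cytosolic malic enzyme, changed by -2.50 (edgeR adjusted p = 1.60e-04) and -1.66 (edgeR adjusted p = 0.00317) in the same order. Idh1, the cytosolic isocitrate dehydrogenase, changed by -0.47 (edgeR adjusted p = 0.00287) and -0.64 (edgeR adjusted p = 3.22e-04). By zone, Idh1 was lower in periportal hepatocytes in the average over states (-0.35, edgeR adjusted p = 2.62e-04), the same side as its mitochondrial counterpart Idh2. Mdh1, the cytosolic malate dehydrogenase, was higher there (0.41, edgeR adjusted p = 0.0026), while Mdh2 showed no difference that passed.

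A list of 10 genes that feed or drain the cycle held members on both sides. In the average over states 3 of the 10 were higher and 2 lower in periportal hepatocytes, against 10.3% and 9.96% of all genes. With library totals the mitochondrial aspartate aminotransferase gene Got2 (-0.18, edgeR adjusted p = 0.0418), the citrate carrier gene Slc25a1 (-0.20, 0.0441) and Slc25a10 (-0.31, 0.0495) were also called lower and Slc25a11 was not called, so the split became 2 higher and 5 lower. Pcx, the pyruvate carboxylase gene that makes oxaloacetate from pyruvate, was higher (1.04, 118 against 57.3 CPM, edgeR adjusted p = 0.00155). Slc25a11, the 2-oxoglutarate carrier gene (0.20, edgeR adjusted p = 0.0181; 0.05 and 0.563 with library totals), and Pck2, the mitochondrial phosphoenolpyruvate carboxykinase gene, named here after its values were seen (1.52, from 0.493 to 1.45 CPM, edgeR adjusted p = 0.0143), were also higher. Dlat, the E2 subunit of pyruvate dehydrogenase, was lower (-0.57, edgeR adjusted p = 6.11e-05), as was Glud1, the glutamate dehydrogenase gene (-0.30, edgeR adjusted p = 0.00308). Over 24 h Pdhb, the E1 beta subunit of pyruvate dehydrogenase, fell in both zones, with changes of -1.06 (edgeR adjusted p = 2.02e-04) in pericentral and -0.81 (edgeR adjusted p = 0.00188) in periportal hepatocytes. These are close in size to the changes of Cs, the next step on the path from pyruvate into the cycle. Dlat fell in pericentral hepatocytes (-0.45, edgeR adjusted p = 0.0283; -0.49 and 0.0648 with library totals) and did not pass in periportal hepatocytes. Pdha1, another pyruvate dehydrogenase gene of this list, named here after its values were seen, passed in neither zone. The dicarboxylate carrier gene Slc25a10 fell between fed and 8 h in periportal hepatocytes (-0.74, edgeR adjusted p = 0.00568) and did not pass in pericentral hepatocytes. Between 8 h and 24 h Slc25a10 rose in pericentral hepatocytes by 0.94 (edgeR adjusted p = 0.00204) and in periportal hepatocytes by 0.90 (edgeR adjusted p = 0.00355). Both parts also span a change of clock hour. Between fed and 24 h it passed in pericentral hepatocytes (0.51, edgeR adjusted p = 0.0326), but not with library totals (0.48, 0.111). In periportal hepatocytes that change did not pass.

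The genes with the most similar profile were sought among 6737 genes with a mean of at least 10 CPM, by Pearson's r of log2 CPM over the 18 libraries. The points share zone and feeding state, which enter r, so it describes likeness only. Cs was most like Paox (0.931) and Rnpep (0.926), and Fh1 most like Shb (0.932) and Tat (0.911). Ogdh was most like Kif21a (0.925) and Gsto1 (0.907), Suclg1 like Fam13a (0.945) and Acad11 (0.926), and Sucla2 like Rida (0.928) and Sfxn1 (0.923). Idh2 was most like Nln (0.897) and Tut4 (0.883) and Mdh2 like Uqcc2 (0.839) and Eif5a (0.814). The flattest gene, Suclg2, reached only 0.675 with Fam3a and 0.641 with C1galt1.

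Reads of near-identical copies bear on 2 members. Csl, which resembles the Cs transcript at 91.9% over 1522 bases, averaged 0.014 CPM, and Gm15163, which matches Suclg2 at 98.9% over 1302 bases, averaged 0.04 CPM, so that little signal was listed under these copies, although shared reads cannot be told apart. Fh1 lies on the strand opposite to Kmo (258 CPM), with 0 bases of overlap between annotated exons.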

How the data were processed

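RNA-seq was measured in 18 libraries, 3 in each of 6 groups. The authors deposited estimated counts per gene; kallisto 0.46.0 and build mm10 are named in the submitters' processing notes, and the transcript annotation and strand setting are not given in the sources used here. The NEBNext Ultra kit was used, per the labels' protocols. The deposited estimated counts were rounded to whole numbers; 67.5 to 70.5% were already whole within 1e-09. Ensembl identifiers were paired with symbols for 27566 of 28030 genes through a GENCODE annotation on GRCm38.

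Genes were kept by edgeR's default expression filter (12477 genes). All 18 libraries were fitted together in edgeR 4.0.16 (R 4.3.3) with TMM scaling and a quasi-likelihood test (12 residual degrees of freedom) for 14 contrasts, with Benjamini-Hochberg adjustment over all genes and a threshold of 0.05. Averages over zones or states are contrasts of group coefficients. Standard errors and 95% intervals come from the test statistic. Log2 CPM used a prior count of 2.

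Alternatives were DESeq2 size factors, library totals, no filter beyond 1 count, a mean of at least 1 CPM, only the groups of the contrast, the replicate number as a block, DESeq2 1.42.0, limma-voom (limma 3.58.1) and leaving out each of 18 libraries. The procedure was tested on simulated data. No replicate pair agreed within sampling noise (chi-square per gene 35.9 to 122).

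The members and lists were chosen with earlier results of these data known. All members are named; from the other lists, up to 3 genes per direction and contrast with the largest change among those that passed without overlap between groups, any other subunit of the cycle, and the 2 genes most like each member. Exceptions are marked. Genes named under the rule in 1 contrast are also given in others. Some genes are not reported here and were left out of the list counts.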

Additional observations from a re-analysis of the deposited data

How the results depend on the processing

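Counts are of the 8 tested members that passed. In the zone comparisons, fed mice went from 4 to 2 with library totals and no filter beyond 1 count (Cs and Ogdh) and with only the groups compared (Ogdh and Fh1); 8 h from Ogdh and Sucla2 to 1, Idh2, with library totals and to 0 with only the groups compared; at 24 h library totals kept 2, with Cs in place of Fh1, and the count went from 2 to 1 with no filter, limma-voom or the replicate block and to 0 with only the groups compared. For 8 h against fed, pericentral hepatocytes went from 1 to 0 with library totals, no filter, limma-voom, the replicate block and only the groups compared, and the average over zones from 1 to 0 with only the groups compared. For 24 h against 8 h, library totals and only the groups compared each gave 1, in pericentral (from 3) and periportal hepatocytes (from 2). For 24 h against fed in periportal hepatocytes, DESeq2 gave 4 in place of 2 (Cs, Ogdh, Suclg1 and Fh1), the same genes as its 4 in pericentral hepatocytes. No member reversed in any of these.

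Leaving out 1 library gave 1 to 4 (fed), 0 to 2 (8 h), 0 to 2 (24 h) and 6 to 6 (average) in the zone comparisons. It gave 0 to 1, 3 to 4 and 1 to 3 in pericentral hepatocytes for 8 h against fed, 24 h against fed and 24 h against 8 h, and 0 to 0, 2 to 3 and 0 to 2 in periportal hepatocytes. The zone averages gave 0 to 1 (8 h) and 4 to 4 (24 h), and the tests of a difference between zones 0 to 0.

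Of 45 same-numbered pairs of libraries 7 had a correlation over 0.1 (-0.12 to 0.21, median 0.03), against 3 of 90 pairs with different numbers (median -0.02). The same-numbered pairs include libraries of different feeding states, which cannot share an animal. The correlations therefore cannot decide whether libraries of both zones came from the same animal. Not every pair was over 0.1, and the replicate block is given here only. It ended the calls of Fh1 at 24 h between zones (0.66, edgeR adjusted p = 0.0635) and of Cs at 8 h in pericentral hepatocytes (-0.49, 0.0548), and it made Suclg1 pass at 8 h between zones (edgeR adjusted p = 0.0386) and in periportal hepatocytes over 24 h (0.27, 0.0446).

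Over all genes, library totals moved the zone counts from 891 to 1359 (8 h) and from 520 to 802 (24 h), and the counts of 24 h against 8 h from 1212 to 774 (pericentral) and from 931 to 525 (periportal). With only the groups compared, 891 became 450, 1212 became 617 and 931 became 413. DESeq2 gave 821 in place of 520 for the zones at 24 h, 38 in place of 2 for the zone difference of the 24 h change and 6 in place of 0 for that of the 8 h change; limma-voom and the replicate block gave 0 and a mean of at least 1 CPM gave 1 in place of the 2. With 3 libraries a group, small differences between zones lie within the spread.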
